A study of Mus musculus with 282 samples.

Results

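The genes described here host small nucleolar RNAs (snoRNAs) in their introns. The list held 6 names, Snhg11, Snhg12, Snhg1, Snhg4, Snhg8 and Gas5, and a gene was measured as the sum of all assembled transcripts that carry its name. Of the 6 names, 5 were found, with 42 of the 51024 transcripts and 5 of the 12874 gene names in the table. No transcript named Snhg8 was among those analysed, and its level is not given here. Expression was measured by RNA-Seq in the whole hypothalamus of male mice with 1 library per mouse, from the inbred strains of a mouse panel abbreviated HMDP. All mice were fed a diet high in fat and sugar, so that no group without the diet was compared. The 99 strains comprised 43 BXD strains from C57BL/6J and DBA/2J, 18 AXB/BXA strains from C57BL/6J and A/J, 7 CXB strains from the By substrains of C57BL/6 and BALB/c, 6 BXH strains from C57BL/6J and C3H/HeJ, and 25 classical inbred strains. The tissue was not dissected into nuclei, and in such bulk tissue fewer cells of a type and less RNA per cell cannot be told apart.

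Most vertebrate snoRNAs are not transcribed on their own but are released from the introns of a host gene after splicing. Box C/D snoRNAs guide the methylation of the ribose in ribosomal RNA and box H/ACA snoRNAs guide pseudouridylation, each bound to a set of core proteins. Many hosts encode ribosomal proteins or translation factors, whereas others are long non-coding RNAs whose exons have short reading frames and are degraded by nonsense-mediated decay when translated. Gas5, first cloned from growth-arrested cells, belongs to the second kind, as do the Snhg genes, and Snhg11 is known for its high level in neurons.

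An exon that covers a snoRNA keeps intron sequence around it, either because the intron is retained or because the transcript begins or ends within it, so the snoRNA sequences show what the isoforms below hold or remove. The 5 spans held 25 annotated snoRNAs on the same strand, with 9 in Gas5, 8 in Snhg1, 4 in Snhg12, 2 in Snhg11 and 2 in Snhg4. Of these, 20 lay whole within an exon of at least 1 assembled transcript and 4 within introns alone. Shown here are 4 snoRNAs of Gas5, each covered by an exon whose use differed between strains, both snoRNAs of Snhg11, the most abundant host, and the pair of Snhg12 that its transcripts covered. The sequences are those of GENCODE M21 on GRCm38, the coordinates of mm10, read 5′ to 3′ on the plus strand.
Mir5117 of Gas5 (chr1:161037356-161037439): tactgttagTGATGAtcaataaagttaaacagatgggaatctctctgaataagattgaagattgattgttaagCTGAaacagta
Snord80 of Gas5 (chr1:161037601-161037681): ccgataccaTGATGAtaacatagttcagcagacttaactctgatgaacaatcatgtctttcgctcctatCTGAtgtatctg
Snord47 of Gas5 (chr1:161038082-161038158): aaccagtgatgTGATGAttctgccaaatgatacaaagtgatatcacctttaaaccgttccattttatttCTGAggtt
Gm25789 of Gas5 (chr1:161038308-161038383): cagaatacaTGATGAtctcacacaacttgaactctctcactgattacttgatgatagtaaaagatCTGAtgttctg
Gm25187 of Snhg11 (chr2:158378222-158378354): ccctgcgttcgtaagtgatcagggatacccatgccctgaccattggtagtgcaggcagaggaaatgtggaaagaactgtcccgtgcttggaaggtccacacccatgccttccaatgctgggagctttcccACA
Gm25129 of Snhg11 (chr2:158379534-158379666): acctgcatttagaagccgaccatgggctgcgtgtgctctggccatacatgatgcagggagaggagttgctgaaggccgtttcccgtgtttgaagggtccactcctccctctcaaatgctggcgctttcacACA
Snora61 of Snhg12 (chr4:132310240-132310369): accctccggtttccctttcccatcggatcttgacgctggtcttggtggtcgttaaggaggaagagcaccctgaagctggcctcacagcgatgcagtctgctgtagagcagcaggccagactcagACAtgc
Snord99 of Snhg12 (chr4:132310691-132310764): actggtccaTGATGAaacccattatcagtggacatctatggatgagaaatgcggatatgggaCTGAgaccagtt
Capitals mark the C box (TGATGA, within the first 20 bases) and the D box (CTGA, within the last 20 bases) of the box C/D snoRNAs, or the ACA within the last 8 bases of a snoRNA of at least 100 bases. By these letters, read on the strand of the snoRNA alone, 13 snoRNAs had the C/D pattern and 4 the H/ACA pattern. The 2 snoRNAs of Snhg4 were not scanned for either pattern and are not in these counts. Among all 1507 snoRNAs of the annotation, 20.5% had the first pattern and 43.5% the second. In Gas5, 7 of 9 had the C/D pattern. With 60 to 84 bases, the snoRNAs of Gas5 were too short to be given the H/ACA pattern. Both snoRNAs of Snhg11 had the H/ACA pattern and were identical in 93 of 136 aligned columns (68.4%). The snoRNA that the annotation names Mir5117 is classed there as a snoRNA and not as a microRNA. The levels of the mature snoRNAs were not analysed here.

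The deposited values are FPKM, sequenced fragments scaled by the length of the transcript and the size of the library. They carry no counts, so that the depth behind a value is unknown and errors are SDs over samples unless another error is named. The summed FPKM of all genes was 322047 at the lowest, 337533 at the median and 792801 at the highest library, that of mouse OB-547 of BXD-12/TyJ, against 463433 for the second highest. Mice OB-273 and OB-274 of CXB-6/ByJ differed by the same factor of 1.0049 in all 47932 transcripts above 0 (the next closest pair of any mice had r = 0.914 over transcripts), less than the noise between replicates, and were averaged and counted as 1 sample. Mouse OB-627 carries labels of 2 strains and entered no comparison. The remaining 280 samples gave 3 mice in 84 strains, 2 in 13 and 1 in 2. The labels give no more than a number for each mouse, and the p-values measure the spread between these samples. Hypothalamic markers were present, with 9 of 10 measured and a summed level of 587 to 7743.13 FPKM. The 6 measured markers of the anterior pituitary reached 0 to 15579.3 FPKM, those of choroid plexus 4.73 to 1525.54 and those of thalamus 14 to 365, and no list was at 0 in all mice. The part of such neighboring tissue in the strain differences below was not tested, and the correlations with these lists are given with the other measures of the libraries.

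The 5 host genes spanned levels over a wide range, with Snhg11 far above the others. Snhg11 (chr2:158375495-158386466, plus strand) was at 520 ± 71.1 FPKM (SD over all samples), the 27th highest of all names, with a lowest, median and highest mouse of 342, 525 and 759. Gas5 (chr1:161034929-161041932) was at 119 ± 37.8, with 43.6, 117 and 457 as its lowest, median and highest values. Snhg12 (chr4:132308636-132311311) was at 28.9 ± 8.14, with 11.6, 28.0 and 117. These 3 genes kept their order without overlap within mice. In every sample and in each of 99 strain means, Snhg11 exceeded Gas5, Gas5 exceeded Snhg12, and Snhg12 exceeded Snhg4. Snhg4 (chr18:35553410-35558316) was at 4.04 ± 1.06 FPKM, with 2.07, 3.95 and 13.9 as its lowest, median and highest values. Snhg1 (chr19:8723473-8726615) was at 3.30 ± 1.47, with 0.404, 3.13 and 8.35. The order of the last pair was not fixed, since Snhg4 exceeded Snhg1 in 191 samples and in 75 of 99 strain means.

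Mouse OB-547 held the highest value of 4 of the 5 genes. Without it the highest mouse was at 703 for Snhg11, 302 for Gas5, 49.9 for Snhg12 and 7.81 for Snhg4, while Snhg1 at 7.96 in that mouse was below its maximum. The coefficient of variation over mice was 13.7% for Snhg11, 26.2% for Snhg4, 28.1% for Snhg12, 31.7% for Gas5 and 44.6% for Snhg1. The most abundant gene was thus the least variable and the least abundant the most.

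**Figure D1:**
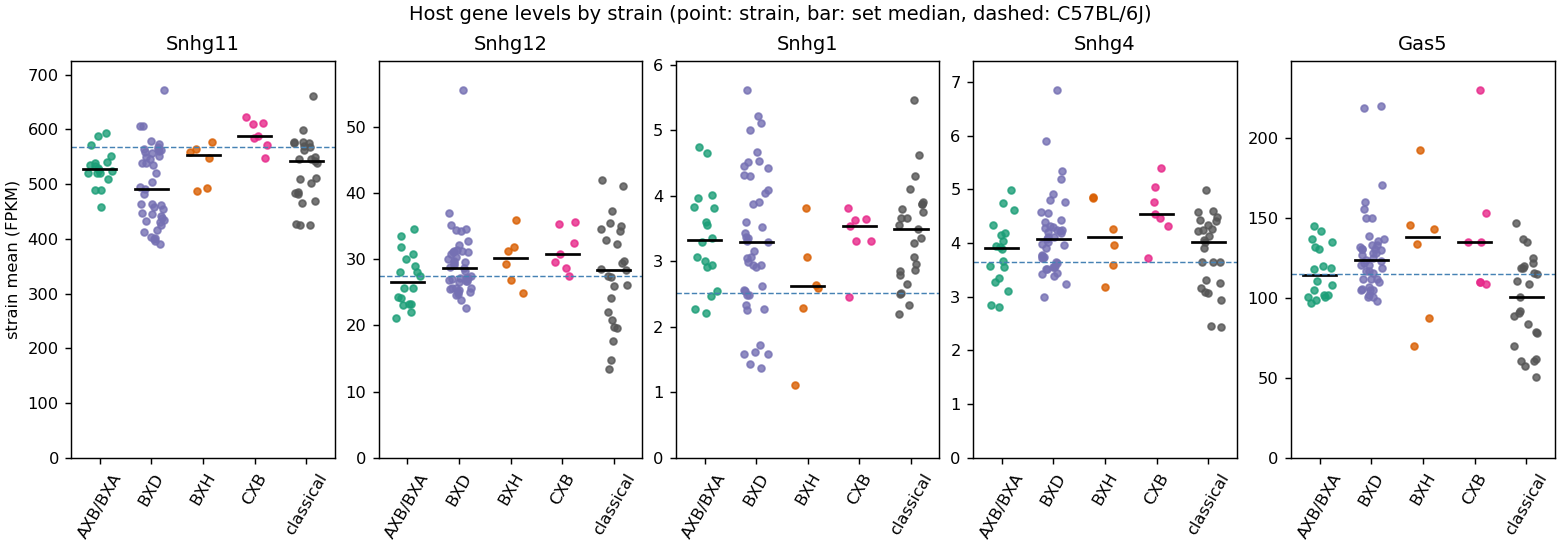
Strain means of the 5 host genes (y axes, FPKM, each starting at 0) by strain set (x axis), with 1 point per strain, a bar at the median of each set and a dashed line at C57BL/6J. The strain means run from 390 to 671 for Snhg11 and from 50.5 to 230 for Gas5, and the 4 lowest Gas5 means are classical inbred strains.

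The first comparison asked whether the level of a host gene differs among strains more than among mice of a strain. Over all strains, 4 of the 5 genes passed the test (limma's moderated F test on log2(FPKM + 1), adjusted p under 0.05), against 66.7% of all names, so that the count is near the background. The strain share of variance, the part of the variance between mice that lies between strains, was 0.706 for Gas5 (adjusted p = 2.5e-31) and 0.671 for Snhg11 (adjusted p = 8.7e-27). It was 0.365 for Snhg12 (adjusted p = 3.6e-08) and 0.217 for Snhg4 (adjusted p = 0.00084). For Snhg1 it was 0.0844 (limma, adjusted p = 0.11). The median share over all names was 0.182, below Gas5, Snhg11, Snhg12 and Snhg4 and above Snhg1. The share of Snhg4 passed with all mice but not without replicate 1 (adjusted p = 0.08) or replicate 3 (adjusted p = 0.13) of every strain, and Snhg1 passed without replicate 1 (limma, adjusted p = 0.046). With known transcripts alone Snhg1 passed too (share 0.121, limma, adjusted p = 0.039), which made 5 of 5 genes.

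Gas5, with the highest strain share of the 5, had strain means of 50.5 at the lowest, 119 at the median and 230 FPKM at the highest, a ratio of 4.55. Its mice were at 52.8, 55.1 and 43.6 in CE/J, at 45.4, 59.4 and 68.6 in CBA/J and at 52.9, 57.9 and 70.5 in NZW/LacJ. They were at 239, 217 and 203 in BXD-16/TyJ and at 191 and 195 in BXHA1. These low and high strains did not overlap in any mouse, but they were picked by the means of the same mice, which favors such a gap. In CXB-7/ByJ, with the highest mean, the mice were at 248, 302 and 140, and the third high strain, BXD-12/TyJ, had 457 in mouse OB-547 beside 114 and 86.3.

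Snhg11 had strain means of 390 at the lowest, 534 at the median and 671 FPKM at the highest, a ratio of 1.72. Its lowest strains were BXD66 with 353, 373 and 444, BXD49 with 372, 399 and 421, and BXD51 with 389, 342 and 471. The highest were BXD-19/TyJ with 703, 642 and 669, C57L/J with 670, 634 and 677, and CXB-3/ByJ with 563, 609 and 695. Every mouse of the high strains was above every mouse of the low strains, which were likewise picked by the means of these mice. The fold between high and low strains was smaller than for Gas5.

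Snhg12 was lowest, among strains with at least 2 mice, in 129X1/SvJ at 18, 14.7 and 11.6 FPKM and in SWR/J at 18.4, 17.2 and 17.1. It was highest in BXD-12/TyJ, where OB-547 at 117 stood beside 25.8 and 24.3, in SEA/GnJ at 32.2, 47.3 and 46.4 and in MA/MyJ at 41.8, 44.3 and 37.1. SEA/GnJ and MA/MyJ, picked by their means as well, lay above the low strains in each mouse, whereas the high mean of BXD-12/TyJ was that of 1 mouse. NON/LtJ, the third low strain, had a mean of 19.6.

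Snhg4 was at 2.51 and 2.37 FPKM in SJL/J and at 2.77, 2.53 and 2.07 in NON/LtJ, the lowest strains, followed by BXA-8/PgnJ at 2.31, 3.63 and 2.47. It was at 5.70, 5.39 and 6.61 in BXD70 and at 5.84, 5.73 and 4.61 in CXB-12/HiAJ, and again highest in BXD-12/TyJ through OB-547, with 13.9 beside 3.73 and 2.90. Snhg1 was at 1.09 and 1.14 in BXHA1, at 1.40, 1.80 and 0.921 in BXD75 and at 1.45, 1.31 and 1.56 in BXD62. Its highest strains were BXD-36/TyJ with 2.81, 8.35 and 5.67, DBA/2J with 7.98, 5.54 and 2.89, and BXD-15/TyJ with 4.96, 5.33 and 5.36. The low strains of Snhg1 were tight and the first high strains were not, with a spread of several FPKM among mice of 1 strain.

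Within the strain sets, each fitted alone, Gas5 passed the test in 4 of 5 sets and was the gene that passed most often. In the 25 classical inbred strains 4 genes passed, against 47.8% of names, with a strain share of 0.860 for Gas5, 0.814 for Snhg11, 0.765 for Snhg12 and 0.481 for Snhg4. In the 43 BXD strains 3 genes passed, against 37.3%, namely Snhg11 (0.608), Gas5 (0.333) and Snhg1 (0.289). Without mouse OB-547 the share of Gas5 was 0.612. For Snhg12 the BXD share was 0.0038 (limma, adjusted p = 0.54), and without OB-547 it was 0.103 (adjusted p = 0.18). Snhg4 did not pass in BXD (limma, adjusted p = 0.27) but passed without OB-547 (adjusted p = 0.02). In the 18 AXB/BXA strains Gas5 alone passed, against 22.5% of names, with a share of 0.676 (limma, adjusted p = 0.00017). Snhg11 missed the threshold there (limma, adjusted p = 0.055), and with 2 alignment covariates, the mapped reads and how many mapped uniquely, it passed (adjusted p = 0.047). In the 6 BXH strains Gas5 alone passed, against 16.8% of names, with a share of 0.948 and means of 70.2 FPKM in BXH-6/TyJ to 193 in BXHA1. In the 7 CXB strains no gene passed, against 1.39% of names, and Gas5 had the lowest adjusted p (limma, 0.30, unadjusted 0.015). The difference between sets was not tested.

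**Figure D2:**
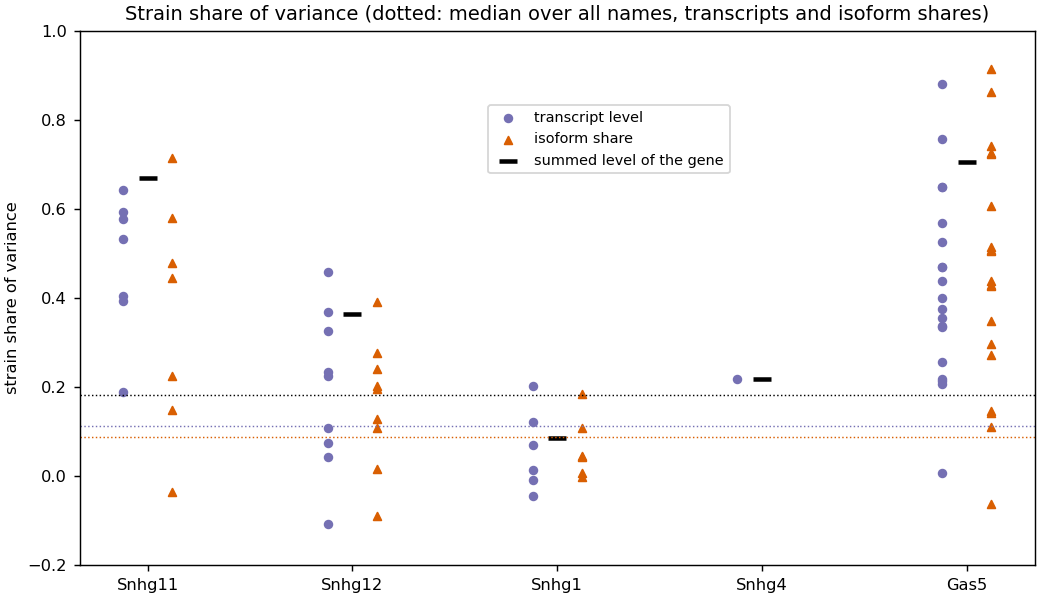
Strain share of variance (y axis, 1 would place all variance between strains) of each host gene and of its transcripts, with a bar for the summed level, points for transcript levels, triangles for isoform shares and dotted lines at the medians over all names, transcripts and isoform shares. Gas5 has the widest range, with isoform shares up to 0.915, while the transcripts of Snhg1 stay below 0.21.

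The parents of the recombinant inbred sets, with BALB/cJ standing for its By substrain, were compared with C57BL/6J, which all 4 comparisons share. The test called 0 of 5 genes in DBA/2J, A/J, BALB/cJ and C3H/HeJ, against 3.68%, 4.48%, 3.96% and 4.43% of all names. In limma, 2, 0, 0 and 1 genes had an unadjusted p under 0.05, in the same order. Gas5 was at 76.1, 79.0 and 79.5 FPKM in C3H/HeJ and at 127, 95.2 and 124 in C57BL/6J. The groups did not overlap, and the difference on the log2(FPKM + 1) scale was -0.54 ± 0.18 (SE, limma, adjusted p = 0.064). It passed the threshold without C57BL/6J replicate 2 (adjusted p = 0.038), without OB-547, which is of another strain (adjusted p = 0.0089), with quantile normalization and with covariates. Snhg11 was at 493, 473 and 483 in DBA/2J and at 559, 565 and 581 in C57BL/6J. These groups did not overlap either, with a log2 difference of -0.23 ± 0.10 (SE, limma, adjusted p = 0.20). Snhg1 was at 7.98, 5.54 and 2.89 in DBA/2J and at 3.19, 2.5 and 1.87 in C57BL/6J, which overlapped, with a log2 difference of 0.81 ± 0.39 (SE, limma, adjusted p = 0.30).

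The same parents were compared by transcript. The split of a gene's FPKM among overlapping transcripts is an estimate made by Cufflinks, less certain than their sum. The test called 5 of 42 host gene transcripts in DBA/2J, 4 in A/J, 4 in BALB/cJ and 3 in C3H/HeJ, against 1.93%, 1.83%, 1.64% and 1.79% of all transcripts. Leaving out replicates lowered these counts to 1 to 3 outside A/J. With all mice, the called transcripts were those of Gas5, except for TCONS_00198260 of Snhg11 in DBA/2J and BALB/cJ. Transcripts of 1 gene overlap, so their calls are not independent, and the counts do not describe the host genes at large. Over all strains, 32 of 42 transcripts passed for their level, against 45.9% of all transcripts, and 27 of 41 passed for their share of the gene's FPKM (isoform share), against 36.1%. Gas5 held 18 of the 32 and 16 of the 27, Snhg11 7 and 5, Snhg12 5 and 5, and Snhg1 1 and 1. Without replicate 2 of every strain 16 isoform shares passed.

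Gas5 was assembled as 19 transcripts, of which 18 are known. The most abundant were TCONS_00012781 with 8 exons at 32.5 ± 16.3 FPKM (27.3% of Gas5), TCONS_00012778 with 12 exons at 23.8 ± 13.7 (19.9%) and TCONS_00012775 with 11 exons at 12.5 ± 12.5 (10.5%). No snoRNA lies in an exon of these, nor of TCONS_00012785 with 4 exons at 8.45 ± 5.07 (7.08%). All 9 snoRNAs of Gas5 lay within an exon of some other transcript, and the 11 transcripts that cover one made up 28.8 ± 6.16% of the Gas5 FPKM (SD over all samples).

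A group of 5 strains stood apart in the retained forms. They were A/J and 4 of the 18 AXB/BXA strains, AXB-15/PgnJ, BXA-2/PgnJ, BXA-24/PgnJ and BXA-4/PgnJ. The transcripts TCONS_00012802 and TCONS_00012797 were chosen after their values had been seen. TCONS_00012802 has 2 exons, the first of 555 bases (chr1:161037718-161038272) covering Snord47. It was at 14.8, 15.3 and 15 FPKM in A/J, at 20.6, 20.3 and 18.2 in AXB-15/PgnJ and at 20.9, 20.7 and 13.5 in BXA-2/PgnJ. It was at 16.2 and 14.6 in BXA-24/PgnJ and at 15.7, 10.9 and 9.84 in BXA-4/PgnJ. The lowest of these 14 mice, at 9.84, was above the highest mouse of the other 94 strains, at 7.87. The median of the other strain means was 2.12, and C57BL/6J was at 2.09 ± 1.25 (SD, n = 3).

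TCONS_00012797, in which the last of 4 exons (chr1:161038225-161038532) covers Gm25789, was high in the same 5 strains. It was at 15.1, 16.3 and 13.2 FPKM in A/J, at 17.6, 20.2 and 23.9 in AXB-15/PgnJ and at 18.3, 15 and 12.3 in BXA-2/PgnJ. It was at 16.6 and 19.1 in BXA-24/PgnJ and at 10.7, 15.1 and 13.7 in BXA-4/PgnJ. Of the mice of other strains only OB-547 at 17.0 exceeded the lowest of these, and the median of the other strain means was 2.74. The strain shares of both isoform shares, 0.915 (limma, adjusted p = 2.3e-72) and 0.863 (adjusted p = 4.6e-56), ranked 56th and 175th of the 47006 isoform shares tested. Against C57BL/6J, A/J was higher by 2.47 ± 0.33 for TCONS_00012802 (SE, limma, adjusted p = 1.6e-09) and by 3.49 ± 0.50 for TCONS_00012797 (adjusted p = 2.7e-08) on the log2(FPKM + 1) scale.

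**Figure D3:**
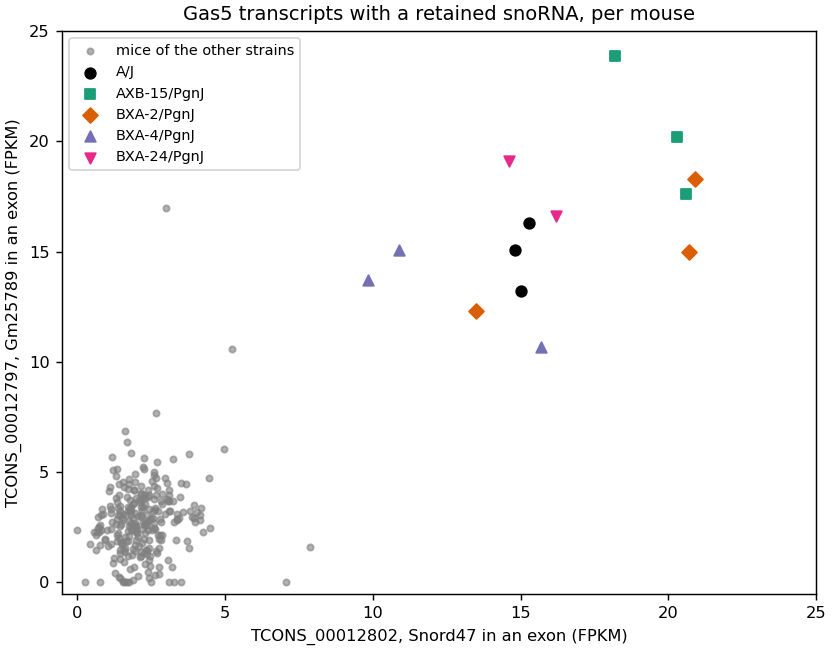
Levels of the Gas5 transcripts with Snord47 (x axis, FPKM) and with Gm25789 (y axis, FPKM) in an exon, with 1 point per mouse. The 14 mice of A/J, AXB-15/PgnJ, BXA-2/PgnJ, BXA-24/PgnJ and BXA-4/PgnJ lie between 9.84 and 20.9 on the x axis, above every other mouse.

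A fully spliced Gas5 form, TCONS_00012778, was low in A/J. It was at 0, 2.70 and 0 FPKM in A/J and at 33.7, 28.0 and 27.3 in C57BL/6J, a log2 difference of -4.30 ± 0.52 (SE, limma, adjusted p = 1.6e-11). A/J was the lowest of 99 strains for it, followed by BXA-2/PgnJ at 2.17 and AXB-15/PgnJ at 3.14. The remaining 16 AXB/BXA strains, BXA-24/PgnJ and BXA-4/PgnJ among them, had means of at least 4 FPKM. The summed Gas5 level of the 5 strains was 92.2 in A/J, 105 in AXB-15/PgnJ, 98.6 in BXA-2/PgnJ, 108 in BXA-24/PgnJ and 97.0 in BXA-4/PgnJ. The last was the lowest mean of the 18 AXB/BXA strains, and all 4 lay below the median of that set, 114, although above the lowest of all strains, 50.5. The part of Gas5 FPKM in transcripts that cover a snoRNA was 50.3% in AXB-15/PgnJ, 45.9% in A/J, 44.4% in BXA-2/PgnJ, 41.9% in BXA-24/PgnJ and 40.8% in BXA-4/PgnJ. These were the highest strain means, and C57BL/6J was at 27.6%.

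By snoRNA, percentages were taken over the FPKM of Gas5 transcripts that span it in an exon or intron, not over all Gas5. The percentage with Snord47 in an exon was 22.9% in AXB-15/PgnJ, 22.1% in BXA-2/PgnJ, 19.6% in A/J, 17.0% in BXA-24/PgnJ and 16.0% in BXA-4/PgnJ. The next strain was SEA/GnJ at 6.22%, and C57BL/6J was at 2.34%. For Gm25789 the same strains were at 17.5% to 23.9%, the next strain was C3H/HeJ at 8.40%, and C57BL/6J was at 0.651%.

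TCONS_00012783, in which the seventh exon of 260 bases (chr1:161037288-161037547) covers the snoRNA named Mir5117, was at or near 0 in many strains and present in others. Its strain share was 0.881 (limma, adjusted p = 9.6e-64), the highest of any host gene transcript for its level, and it too was chosen after its values had been seen. It was at 8.05, 4.44 and 8.33 FPKM in C57BL/6J, at 0, 0.881 and 0 in A/J, and listed at 0 in all mice of DBA/2J, BALB/cJ and C3H/HeJ. Of these strains, C57BL/6J alone had it at more than 1 FPKM. On the log2(FPKM + 1) scale the difference from C57BL/6J was -2.95 ± 0.45 in DBA/2J, BALB/cJ and C3H/HeJ (SE, limma, adjusted p = 1.6e-07, 2.1e-07 and 1.7e-07) and -2.64 ± 0.45 in A/J (adjusted p = 4.8e-06).

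Few strains lay between these levels. The strain mean was under 1 FPKM in 41 strains, at least 4 in 55 and between these limits in 3. The strains under 1 were 18 of 43 BXD, 4 of 18 AXB/BXA, 2 of 6 BXH, 3 of 7 CXB and 14 of 25 classical inbred strains. In AXB/BXA the 4 strains under 1 were the same 4 that were high for TCONS_00012802. Over all strains 5 were high for TCONS_00012802, all of them among the 41. Of the 97 strains with at least 2 mice, none had both a mouse under 1 FPKM and a mouse at 8 FPKM or more.

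The highest Gas5 level, in CXB-7/ByJ, came with another retained form, and a form without a snoRNA in an exon was high there as well. TCONS_00012777, in which an exon of 533 bases (chr1:161037505-161038037) covers Snord80, was at 82.4, 99.4 and 1.32 FPKM in the 3 mice. The next strain mean was 5.40, in BXD62. Without this transcript the summed Gas5 was 166, 203 and 138. The strain call of TCONS_00012777 was lost without replicate 1 (limma, adjusted p = 0.19) and without replicate 2 (adjusted p = 0.21). Of the 3 mice of CXB-7/ByJ, 1 did not share the high level of TCONS_00012777. TCONS_00012781, with no snoRNA in an exon, was also highest in this strain, with a mean of 91.5 FPKM and mice from 37.8 to 142. Its next strain mean was 60.2, in BXD-16/TyJ, and the median of the other strain means was 30.9.

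TCONS_00012775, with 11 exons and no snoRNA in them, was high in BXHA1 and BXD-16/TyJ, among the strains with the highest Gas5. It was at 77.6 and 74.1 FPKM in BXHA1, at 49.5, 61.5 and 48.5 in BXD75, at 39.9, 52.3 and 54.0 in BXD85 with a mean of 42.9 in BXD-16/TyJ, against a median strain mean of 11.8 outside BXHA1. It was listed at 0 in every mouse of BXD-9/TyJ and BXD87. TCONS_00012785 was highest in BXH-9/TyJ at 20.9, 30.2 and 21.7 and in C3H/HeJ at 16.3, 19.4 and 20.9. It ends within the gene after 4 exons, and the strain share of its isoform share was 0.741 (limma, adjusted p = 4.4e-35).

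Snhg11 was assembled as 7 transcripts. TCONS_00198254 with 5 exons made up 72.2% at 375 ± 55.2 FPKM, and its share of the gene did not pass the strain test (limma, adjusted p = 0.79). TCONS_00198253, an unannotated isoform with 7 exons, made up 20.3% at 106 ± 40.7, reached 647 in OB-547, and lost its strain call when any 1 replicate of every strain was left out. The form that covers the H/ACA snoRNA Gm25187, TCONS_00198259, was at 14.9 ± 2.11 and 2.88% of the gene. No assembled transcript had the other H/ACA snoRNA, Gm25129, in an exon. The snoRNA-covering share of Snhg11 was narrow, from 2.26% in BXH-9/TyJ to 3.69% in SJL/J as strain means.

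TCONS_00198256, a known Snhg11 form with 6 exons, also differed among strains (strain share 0.578, limma, adjusted p = 1.3e-19). Its strain mean was under 1 FPKM in 21 strains, from 1 to 4 in 19 and at least 4 in 59. Against C57BL/6J no parent passed (limma, adjusted p = 0.52 in DBA/2J, 0.85 in A/J, 0.81 in BALB/cJ and 0.93 in C3H/HeJ). This form was at 23.2, 23.2 and 25.4 FPKM in BALB/cJ, at 11.7, 11.7 and 11.5 in C57BL/6J and at 1.65, 3.38 and 3.37 in DBA/2J. In A/J it was at 0.0156, 17.2 and 21.1. Such a split between mice of 1 strain was not rare, since 18 of the 97 strains with at least 2 mice had both a mouse under 1 FPKM and a mouse at 8 FPKM or more, compared with 0 for TCONS_00012783 of Gas5. Another Snhg11 form, TCONS_00198260, was at 2.00, 0 and 0 in DBA/2J, at 2.96, 0 and 0 in BALB/cJ and at 17.1, 17.8 and 19.9 in C57BL/6J. The log2 difference was -3.74 ± 0.99 in DBA/2J (SE, limma, adjusted p = 0.016) and -3.61 ± 0.99 in BALB/cJ (adjusted p = 0.027).

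**Figure D4:**
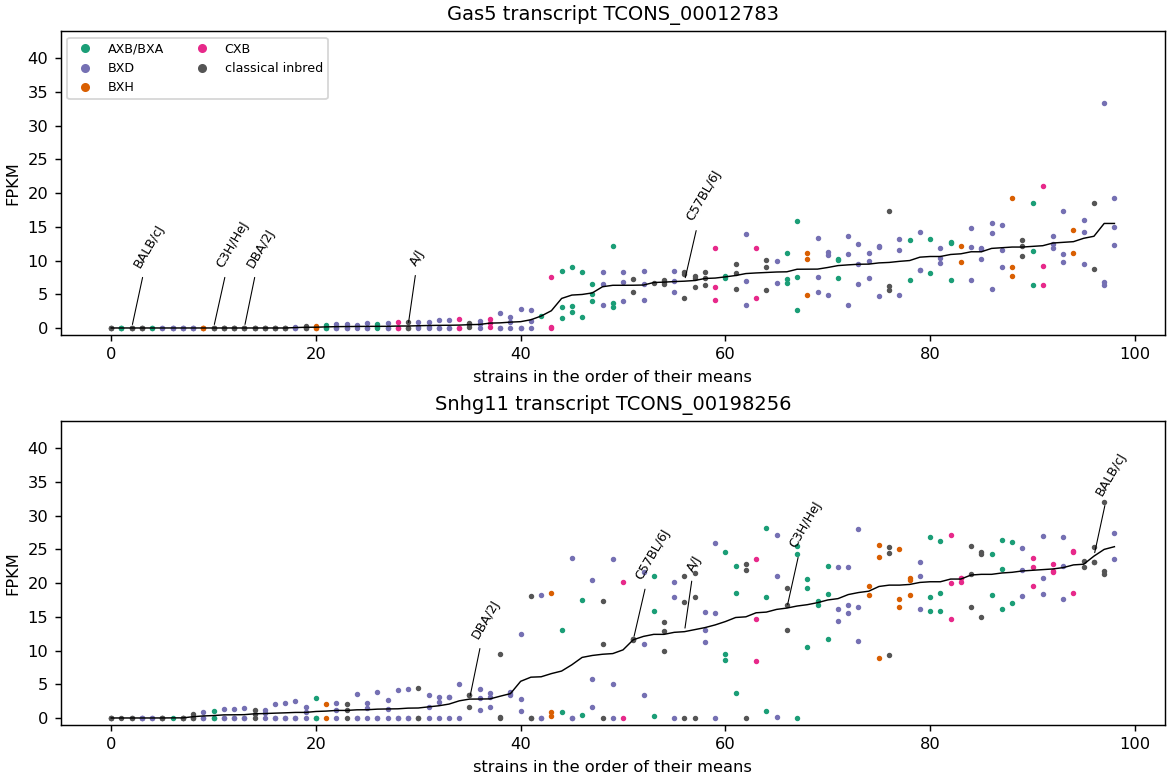
Levels (y axes, FPKM) of the Gas5 transcript that covers Mir5117 (upper panel) and of a Snhg11 transcript (lower panel) in single mice (points, colored by strain set), with strains in the order of their means (x axes, line). In the upper panel DBA/2J, BALB/cJ and C3H/HeJ are at 0 and C57BL/6J at 6.94, and in the lower panel mice of 1 strain are often far apart.

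Snhg12 had 9 transcripts, 3 of them unannotated isoforms. TCONS_00242495 with 5 exons was at 11.4 ± 4.98 FPKM (39.3%) and the short TCONS_00242493 with 2 exons at 7.99 ± 5.32 (27.6%). The first made up 81.9%, 92.6% and 88.5% of Snhg12 in the mice of BXD70, where the second was listed at 0. In SJL/J the first made up 9.19% and 18.4% and the second 44.7% and 52.2%. The isoform shares passed the strain test (limma, adjusted p = 6.2e-09 and 0.00049), but that of TCONS_00242493 did not without replicate 3 (adjusted p = 0.17). TCONS_00242492 (9.57%) and TCONS_00242491 (6.07%), also with 5 exons, passed for their level and share. They begin close to the start of TCONS_00242495, but their last exon ends further downstream, at 132311311 against 132311024. Transcripts that cover Snora61 or Snord99 made up 10.6 ± 5.52% of Snhg12. The highest strain mean was 26.1% in 129X1/SvJ, the strain with the second lowest Snhg12 level, but its mice were far apart at 3.02%, 22.7% and 52.7%.

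Snhg1 was spread over 6 transcripts, each with a mean under 1 FPKM and 1 of them known. The known form, TCONS_00169093, has 2 exons and covers 7 of the 8 snoRNAs, which makes it a largely unspliced RNA, and it was at 0.830 ± 0.440 FPKM (25.1%). TCONS_00169175, with 4 exons, covers 6 snoRNAs and was at 0.640 ± 0.488. The 4 fully spliced forms with 10 exons were listed at 0 in 127, 130, 139 and 153 of the samples. They have nearly the same exons, with slightly shifted borders, such as an end of the sixth exon at 8725256 or 8725257. The split of FPKM among them is therefore uncertain, and a 0 in 1 form does not show that spliced Snhg1 was absent. Forms with a snoRNA in an exon made up 52.4 ± 25.4% of Snhg1, the highest of the hosts, and all of it in several strains with little Snhg1, among them BXHA1 at 1.11 FPKM and BXD70 at 1.72. Only TCONS_00169084, 1 of these 4 nearly identical forms, passed for its level (limma, adjusted p = 0.0024) and for its isoform share (adjusted p = 0.0073). Snhg4 had 1 transcript, with both of its snoRNAs in introns.

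The names did not always cover all RNA assigned to their loci. The FPKM of the whole locus was 520 for Snhg11, 33.0 for Snhg12, 150 for Gas5 and 21.4 for Snhg1, of which the named transcripts made up all of Snhg11, 87.6% of Snhg12, 79.4% of Gas5 and 15.4% of Snhg1. Single mice ranged from 8.85% to 99.2% for Gas5 and from 0.609% to 61.5% for Snhg1. By locus values the strain share of Gas5 was 0.271 (limma, adjusted p = 2.3e-05) and that of Snhg12 0.149 (adjusted p = 0.012). Snhg4 shares its locus with Matr3, which encodes a nuclear matrix protein and was at 88.8 ± 6.98 FPKM, and was 4.27% of it.

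Libraries were not stranded, so reads of overlapping antisense genes cannot be told apart. The exons of Snhg12 overlapped those of Trnau1ap, a selenocysteine tRNA factor on the other strand, over 1776 bases. Trnau1ap was at 10.4 ± 2.92 FPKM and correlated with Snhg12 over 99 strain means (r = 0.29, permutation adjusted p = 0.028 over 6 relations, rho = 0.23 with adjusted p = 0.13, r = 0.20 without the 2 strains farthest from the median). Snhg4 overlapped Matr3 over 227 bases on the same strand (r = 0.06, permutation adjusted p = 0.57, rho = 0.02). Slc3a2 beside Snhg1 and Zbtb37 beside Gas5 had no exon in common with them, nor had the Gm25129 entry within Snhg11.

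The host genes were weakly correlated with each other over strain means. Strains of a recombinant inbred set share parents, so strain means are not fully independent. The permutations treated them as independent, here and for the overlapping genes and library measures. Of 10 pairs 2 had an absolute r of at least 0.2, against 27.3% of all pairs of names, and r ranged from -0.13 to 0.34. Snhg12 and Snhg4 were the 1 pair that passed (r = 0.34, permutation p = 0.00056, adjusted p = 0.0056 over 10 pairs, rho = 0.31 with adjusted p = 0.018, r = 0.30 without the 2 farthest strains). The highest pairs after it were Snhg4 with Gas5 (r = 0.22, permutation adjusted p = 0.16, rho = 0.26) and Snhg12 with Gas5 (r = 0.20, permutation adjusted p = 0.17, rho = 0.12). Within single strain sets no pair passed, and Snhg12 with Snhg4 ranged from -0.16 in the 6 BXH strains to 0.38 in the 25 classical inbred strains.

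Among mice of the same strain the picture depended on 1 library. Over the deviations of 278 mice from their strain means 9 of 10 pairs passed, with r = 0.51 for Gas5 and Snhg11, 0.49 for Gas5 and Snhg12 and 0.47 for Gas5 and Snhg4. Without OB-547 3 pairs passed, and these values were 0.26, 0.27 and 0.28 (permutation adjusted p = 0.0001 for each). Snhg12 and Snhg4, the pair that passed over strain means, then had r = 0.02 (permutation adjusted p = 0.80).

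**Figure D5:**
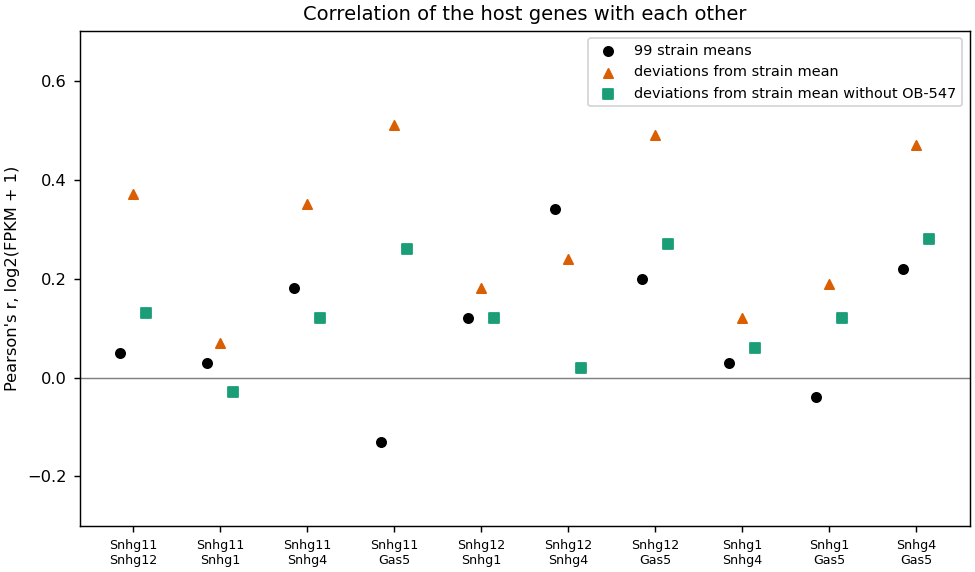
Pearson's r (y axis, on log2(FPKM + 1)) of the 10 pairs of host genes (x axis) over strain means (circles), over deviations of mice from their strain mean (triangles) and over the same without mouse OB-547 (squares). Circles lie between -0.13 and 0.34, and the triangles of Gas5 with Snhg11, Snhg12 and Snhg4 at 0.47 to 0.51 fall to 0.26 to 0.28 without that mouse.

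Measures of the libraries moved with some of the genes over the 99 strain means, among 70 relations. Snhg1 correlated with mapped reads (r = 0.43, permutation adjusted p = 0.0021, rho = 0.37, r = 0.37 without the 2 farthest strains). Snhg12 (r = 0.37, permutation adjusted p = 0.036, rho = 0.32) and Snhg4 (r = 0.37, adjusted p = 0.0042, rho = 0.41) correlated with the summed FPKM, with r = 0.33 and 0.36 without the 2 farthest strains. Gas5 correlated with the summed markers of microglia (r = 0.35, permutation adjusted p = 0.0098, rho = 0.26 with adjusted p = 0.053, r = 0.30 without the 2 farthest) and of ependyma (r = 0.34, permutation adjusted p = 0.012, rho = 0.40, r = 0.44). All 5 microglial markers were measured, with a sum of 16.9 to 123 FPKM over mice, and all 3 ependymal ones, with a sum of 6.30 to 47.4. Other relations passed by rho alone. They were Gas5 with markers of neurons (r = -0.26, permutation adjusted p = 0.061, rho = -0.35 with adjusted p = 0.0049), of oligodendrocytes (r = 0.28, permutation adjusted p = 0.058, rho = 0.27 with adjusted p = 0.049) and with the summed FPKM (r = 0.30, permutation adjusted p = 0.061, rho = 0.37 with adjusted p = 0.0033). Snhg12 also correlated by rho with mapped reads (r = 0.24, permutation adjusted p = 0.093, rho = 0.31 with adjusted p = 0.021). With markers of the anterior pituitary, rho was -0.32 for Snhg12 (r = -0.25, permutation adjusted p = 0.07, 0.013 for rho) and -0.29 for Snhg11 (r = -0.26, permutation adjusted p = 0.061, 0.03 for rho). No relation with the lists of choroid plexus or thalamus passed. The part of these measures in the strain differences was not tested.

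The names most like each host gene over 99 strain means, by Pearson's r, are given as a description. For Snhg11 they were Gm14204 (r = 0.58), Gm14169 (0.51) and Tspyl3 (0.50), all on chromosome 2 with Snhg11. For Snhg12 they included Rps12 (0.62), a protein of the small ribosomal subunit, and Zcchc17 (0.58), on chromosome 4 with Snhg12. For Snhg4 they were Pomp (0.58), a proteasome assembly factor, Rpl22 (0.57), a protein of the large ribosomal subunit, and Gm561 (0.56). For Gas5 they were Esd (0.57), Tnni1 (0.56), on chromosome 1 with Gas5, and Atraid (0.54). For Snhg1 they were Ctr9 (0.63), a subunit of the PAF1 complex, Ap4e1 (0.63) and Setd2 (0.63), the histone H3 methyltransferase, with rho of only 0.39, 0.50 and 0.40. The number of names with an absolute r of at least 0.5, of 12017, was 3 for Snhg11, 17 for Gas5, 26 for Snhg12, 41 for Snhg4 and 188 for Snhg1, and the median name had 23. Points share library preparation and depth, and no p is given.

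Other genes of snoRNA production were taken from lists of hosts, core proteins and decay factors, of which similar parts to the 66.7% of all names passed the strain test. Of 9 names listed for other non-coding hosts 8 were measured and 5 passed the strain test, with a median share of 0.335, against 0.182 over all names. Rian, an imprinted host at 332 ± 47.4 FPKM, had a share of 0.664, Snhg3 at 11.9 ± 3.26 one of 0.287, and Snhg7 at 8.05 ± 4.64 one of 0.745. Of 15 names listed for coding hosts 14 were measured and 10 passed, with a median share of 0.25. Among them Rpl7a (127 ± 35.4 FPKM) had a share of 0.870 and Rpsa (67.6 ± 31.3) one of 0.774, both of them ribosomal proteins, while Eef2, the elongation factor at 384 ± 29.4, did not pass (share 0.0812, limma, adjusted p = 0.16). Of 9 names listed for snoRNP core proteins 8 were measured and 5 passed, among them Nop56 (share 0.235), Fbl, the methyltransferase fibrillarin (0.378), and Nhp2l1 (0.611). The pseudouridine synthase Dkc1 did not (share 0.0447, limma, adjusted p = 0.26). Of 10 factors of nonsense-mediated decay all were measured and 7 passed, with a median share of 0.27, among them Upf1, the central helicase (0.511), and Smg5 (0.439).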

How the data were processed

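Libraries of polyadenylated RNA from the hypothalamus were sequenced in pairs without strand. The authors used STAR 2.3.1 for alignment to mm10 and Cufflinks 2.2.0 for assembly, merged with GENCODE M2. They deposited FPKM as scaled by Cuffnorm 2.2.1. The table keeps transcripts detected (FPKM > 0) in 100 mice or more that exceed 1 in 50 or more, which each of its transcripts met. All 282 columns were used. Transcripts were summed by name. Values were tested as log2(FPKM + 1) among 99 strains with limma 3.58.1 in R 4.3.3 (moderated F, Benjamini-Hochberg over all features, threshold 0.05). Isoform shares were tested in at least 200 mice. The strain share is the intraclass correlation. Strain sets were fitted alone. Pairs were tested with 100000 permutations in Python 3.11.15 with scipy 1.17.1, which take no account of the relatedness of strains. Exons were compared with GENCODE M21. The design had foreseen 15 pairs, of which 10 could be computed without Snhg8. The tests were tested on simulated data. FPKM depend on the assembly and on the annotated length.

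The host genes and lists were chosen with earlier results of these data known. The text names each host gene, transcripts of at least 5% of a gene or its 3 highest, the 3 highest and 3 lowest strains with 2 or more mice, the parent strains, and the 3 most alike names that lie more than 5 kb away. Some names that meet these rules are not reported here. Other transcripts and strains were chosen after their values were seen. Alternatives were pseudocounts of 0.1 and 0.01, a minimum mean of 1 FPKM, quantile normalization, read totals and unique percentage as covariates, the Kruskal-Wallis test, known transcripts, locus values, both placements of OB-627, removal of OB-547 and removal of each replicate. The identical pair as 2 samples, and deviations without OB-547, were added after seeing the data.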

Additional observations from a re-analysis of the deposited data

How the results depend on the processing

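Of 189 alternative values of counts 160 stayed within 1.5 times the reported count, and of 522 alternatives for single values 491 kept their direction and side of the threshold. The genes passing in AXB/BXA rose from 1 to 2 with a pseudocount of 0.1 and with covariates. The transcripts differing in DBA/2J fell from 5 to 3 with a pseudocount of 0.1 or 0.01, and in BALB/cJ from 4 to 2 with 0.01. The genes differing in C3H/HeJ went from 0 to 1, Gas5, with quantile normalization, with covariates, without OB-547 and without C57BL/6J replicate 2. With replicates left out, transcripts ranged from 2 to 3 in DBA/2J, from 1 to 2 in BALB/cJ and from 1 to 2 in C3H/HeJ, isoform shares from 16 to 23, and pairs from 1 to 4. Pairs numbered 3 over means of FPKM, 5 over single mice, 9 over deviations from the strain mean, 3 over such deviations without OB-547, and 0 within each set of strains. Snhg12 and Snhg4 turned to r = -0.16 in the 6 BXH strains. The cause of these changes was not tested, except that fewer mice or strains enter some of them. No paired analysis was possible because the replicate numbers only name the mice. Without counts, depth could not be set against the spread, and transcripts near 0 may be failed estimates.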
